A study of Mus musculus with 6 samples.

Results

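The genes described here are 58 genes that build and run the mitotic apparatus of the cell: the kinase that drives entry into mitosis and its activators, other mitotic kinases, the spindle checkpoint, the kinetochore, mitotic kinesins, spindle assembly factors, cytokinesis proteins and chromosome structure proteins. They were taken by symbol from a list of names, and all 58 were found among the 27506 genes of the count table. The rule itself uses no measured value, but the list was drawn up with earlier results of these data known. It includes Ccna2 and Ect2, which the study had reported as lower from the same RNA-seq. The study also found both lower by in situ hybridization and qPCR, and counted fewer Ki67-positive cells in the mutant dental mesenchyme. The 58 mRNAs were measured by RNA-seq in dental pulp from the mandibular first molar of C57BL/6 mice 3.5 days after birth (P3.5). There were 3 control libraries of the genotype Ror2 fl/fl and 3 libraries of the genotype Osr2-Cre;Ror2 fl/fl (Ror2 mutants). All animals carried floxed Ror2, which encodes a receptor for non-canonical Wnt ligands, and the mutants also carried Cre under the control of Osr2, which acts in the dental mesenchyme and alveolar bone but not in the dental epithelium. The comparison asks whether loss of Ror2 in the mesenchyme changed the expression of genes of cell division in the tooth as its root begins to form. The controls carried no Cre, so loss of Ror2 and presence of Cre cannot be told apart. The labels name no batch, so a difference in handling between the groups cannot be told apart from genotype either. The labels do not say whether each library came from a separate animal or from pooled animals, so p-values measure only the spread between these libraries.

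Cells enter mitosis when Cdk1 bound to A- and B-type cyclins is activated, after which chromosomes condense and a bipolar spindle of microtubules forms. Kinetochores attach each chromosome to the spindle, the spindle checkpoint holds the cell until all are attached, and the anaphase-promoting complex then releases the sister chromatids before the cell is cleaved by cytokinesis. Most of these genes are transcribed in a wave late in the cell cycle, through the MuvB complex with B-Myb and Foxm1 at cell cycle genes homology region (CHR) elements and through NF-Y at CCAAT boxes. Their summed mRNA is therefore widely read as a measure of dividing cells in a tissue, and in the forming tooth root dividing cells are found mainly in the apical mesenchyme and epithelium.

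The 6 libraries held between 56134770 and 62628940 estimated counts each, and 19330 genes passed the filter on low counts. Levels are given as CPM, the counts of a gene scaled to a common library size with the TMM method. Ror2 itself was measured at 38.2, 36.2 and 36.7 CPM in the controls and 27.9, 28.1 and 26.3 CPM in the mutants, 26.0% lower (edgeR's quasi-likelihood test, log2 fold change -0.43, standard error (SE) 0.08, Benjamini-Hochberg adjusted p = 0.013), with no overlap between the groups. An exact two-sided permutation test of 3 against 3 libraries cannot give a p below 0.1. The samples were labelled dental pulp, and besides pulp and odontoblast genes they held the enamel protein genes of ameloblasts at high levels in every library, for a list of 6 genes 168600 to 190100 CPM in the controls and 181800 to 252300 CPM in the mutants. Skeletal muscle markers summed to 11.64 to 38.12 CPM in the controls and 3.383 to 4.728 CPM in the mutants, with 7 of 8 called lower. Of 6 blood markers 2 were called lower, and their sum was 782.1 to 1320 CPM in the controls and 243.5 to 933.4 CPM in the mutants. Dental epithelium, odontoblast, ameloblast and endothelium markers had adjusted p-values of at least 0.068. Of 11 pulp mesenchyme markers Prrx1 was called lower and Msx2 higher, of 5 bone markers Sost was lower and Spp1 higher, of 7 macrophage markers Adgre1 was lower and Tyrobp higher, and of 5 Schwann cell markers 2 were higher. How these differences in makeup bear on the mitotic genes was not tested.

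The mitotic genes were lower in the mutants. Of the 58 genes, 22 had an adjusted p under 0.05 and were lower in the mutants (37.9%, against 9.84% of all genes tested), and 0 were called higher (against 10.4% of all genes tested, and 20.2% called in either direction). Since the list was drawn up with earlier results of these data known, these shares describe it and do not test it. The 22 are spread over 8 of the 9 roles and include Ccna2, Cdk1, Bub1, Mad2l1, Knl1, Ndc80, Kif11, Tpx2, Ect2, Anln, Top2a and Mki67. DESeq2 and limma voom also called 0 higher, and 0 genes were higher at an unadjusted p under 0.05 with edgeR (19.6% of all genes tested), while 33 were lower at that level (18.7% of all genes tested). The calls were sensitive to single libraries: 11 genes were called lower without control 1, 6 without control 2, 3 without control 3 and 9 without mutant 1. Without mutant 2 or mutant 3 the number was 19 and 25. Only Ccna2, Bub1 and Knl1 were called in each of these 6 fits.

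Across the whole set, 48 genes had a log2 fold change below 0 (49.3% of all genes tested) and 10 above 0. The median log2 fold change was -0.36, or 22.2% lower, with quartiles of -0.59 and -0.11, and the median of all genes tested was 0.01. Values ran from -1.21 for Knl1 to 0.25 for Cenpk. In 35 genes every mutant library was below every control library (22.1% of all genes tested did so), in 2 genes, Pttg1 and Bub3, every mutant library was above (22.6% of all genes tested), and in 21 the groups overlapped. All 22 called genes were among the 35. The 3 lowest values belonged to a kinetochore scaffold (Knl1), a condensin subunit (Smc2) and a checkpoint kinase (Bub1), and the values nearest to 0 to Cenpa and Incenp.

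**Figure D1:**
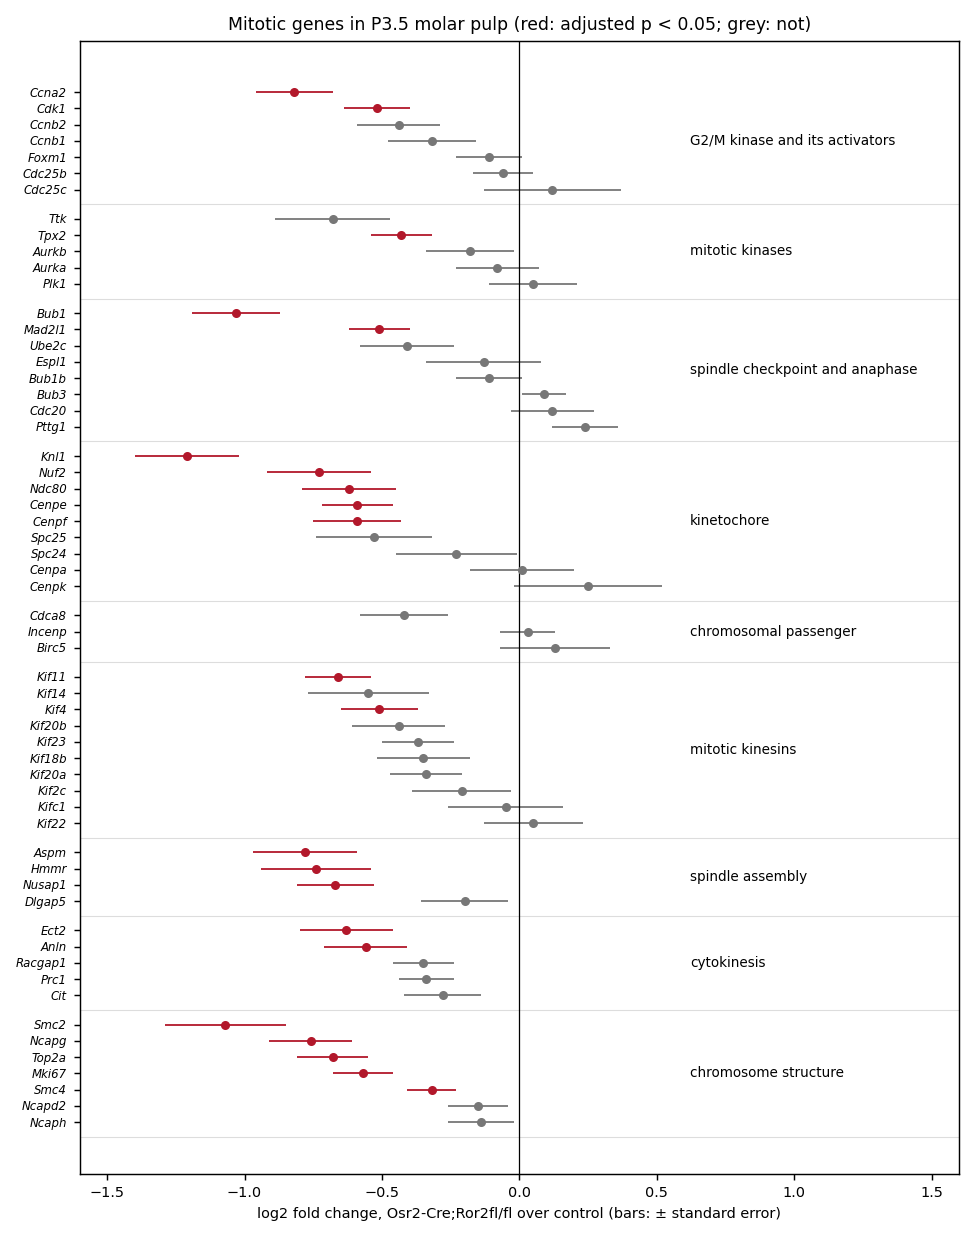
Each point is the log2 fold change of a mitotic gene in Osr2-Cre;Ror2 fl/fl over control pulp (x axis) with a bar of ± 1 standard error, grouped by role (y axis), from 3 libraries per group. The 22 red points have an adjusted p under 0.05 and all lie left of 0, from -1.21 to -0.32, and the 36 grey points run from -0.68 to 0.25.

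Summed over the 58 genes, expression was 666.6, 604.1 and 635.4 CPM in the controls and 466.4, 492.3 and 525.0 CPM in the mutants. The mean was 635.4 ± 31.3 CPM in the controls and 494.6 ± 29.3 CPM in the mutants (SD, n = 3), 22.2% lower, with no overlap. In bulk tissue, fewer dividing cells and less of each mRNA per dividing cell cannot be told apart. Within each group, some libraries stood higher or lower over many genes. Control 1 was the highest control for 41 genes and control 2 the lowest for 45. Among the mutants, mutant 1 was the lowest for 32 genes and mutant 3 the highest for 35. Relative to the control mean, the median gene stood at 0.10, -0.08 and -0.01 on the log2 scale in the controls and at -0.46, -0.36 and -0.28 in the mutants.

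**Figure D2:**
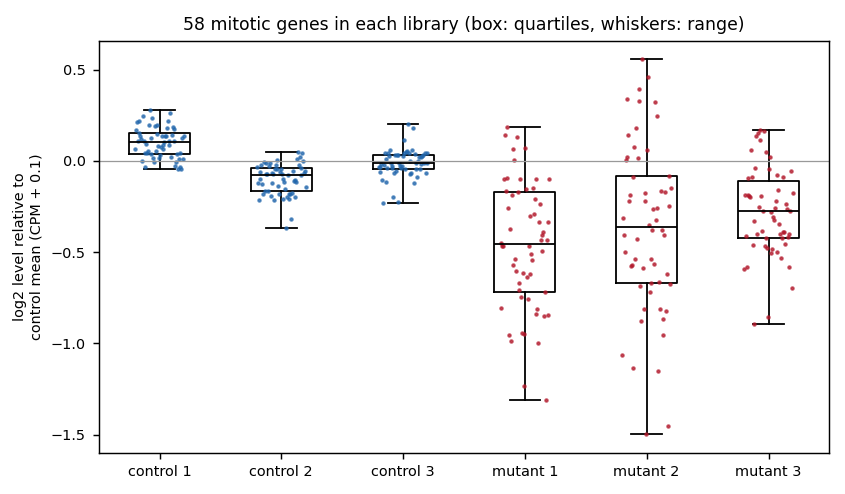
Each point is a mitotic gene in a library, as log2 of its CPM plus 0.1 relative to the control mean (y axis), for the 3 control and 3 mutant libraries (x axis); boxes give the median and quartiles and whiskers the range. The medians of the mutants, -0.46, -0.36 and -0.28, lie below those of all 3 controls, and mutant 2 has the widest spread.

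The start regions of these genes share sequence features that the list did not use. RefSeq gave a window from 250 bases before to 50 bases after the start for 48 of the 58 genes, and none for Ccna2, Cdc25c, Foxm1, Aurkb, Tpx2, Spc24, Incenp, Kif20a, Dlgap5 and Smc4. A CHR element (TTTGAA or TTCGAA, on either strand) was found in 38 of 48 windows (79.2%), against 16.7% of the 12327 tested genes with a window. Within 50 bases of the start the shares were 70.8% and 4.41%. A CCAAT box (CCAAT, on either strand) was found in 36 windows (75%, against 42.2%), and 68.8% held both elements, against 6.93% of tested genes. Of 50 CHR matches 36 lay within 50 bases of the start. Of 79 CCAAT matches 76 lay before it, where most of the window lies. These counts use different regions, and the CCAAT count is given without the share over all genes. A CHR element was in 15 of 19 windows of genes called lower (78.9%) and in 23 of 29 windows of genes not called (79.3%). At least 2 CHR elements were in 31.6% and 13.8% of these windows, and a CCAAT box in 68.4% and 79.3%, differences that were not tested. A CHR element was in 36.6% of windows of 101 other mitotic genes and in 20% of those of 25 S phase genes. For a CCAAT box these shares were 54.5% and 60%. The median GC content of the windows was 58.8% for the mitotic genes and 60.3% for all tested genes with a window. A match is a description of the letters and not evidence of a factor's binding.

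**Figure D3:**
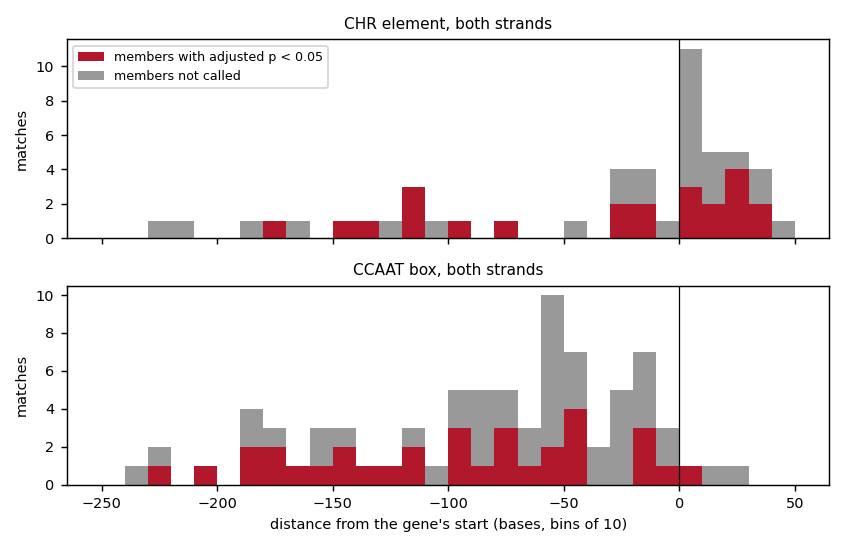
Number of CHR (upper panel) and CCAAT (lower panel) matches in the windows of 48 mitotic genes (y axis) by distance from the start (x axis, in bins of 10 bases), with genes called lower in red and the others in grey. CHR matches gather around the start and CCAAT matches before it, in genes of both kinds. The windows reach 250 bases before the start but only 50 after it.

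A set of 6 of these regions is shown, from 140 bases before the start to 30 bases from it, read 5′ to 3′ on the gene's strand, on RefSeq GRCm38.p6, with CHR elements and CCAAT boxes (CCAAT, or ATTGG on the other strand) in capitals. The genes of the first 4 were called lower and those of the last pair, Cdc20 and Cenpa, were not, although all carry both elements. The positions are chr10:69352883-69353052 (minus strand) for Cdk1, chr1:189688057-189688226 (minus) for Cenpf, chr11:40733408-40733577 (minus) for Hmmr, chr2:127831830-127831999 (minus) for Bub1, chr4:118437314-118437483 (minus) for Cdc20 and chr5:30666746-30666915 (plus) for Cenpa.
Cdk1: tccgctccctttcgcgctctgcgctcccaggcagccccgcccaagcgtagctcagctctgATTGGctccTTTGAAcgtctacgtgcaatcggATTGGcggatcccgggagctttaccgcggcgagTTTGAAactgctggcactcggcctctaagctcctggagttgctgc
Cenpf: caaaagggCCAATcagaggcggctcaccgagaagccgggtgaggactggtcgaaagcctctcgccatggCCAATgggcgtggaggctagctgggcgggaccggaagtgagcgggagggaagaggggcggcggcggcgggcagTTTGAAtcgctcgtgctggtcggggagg
Hmmr: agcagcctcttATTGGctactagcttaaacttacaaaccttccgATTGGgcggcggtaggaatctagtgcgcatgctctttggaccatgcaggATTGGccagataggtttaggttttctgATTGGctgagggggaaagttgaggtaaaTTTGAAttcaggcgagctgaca
Bub1: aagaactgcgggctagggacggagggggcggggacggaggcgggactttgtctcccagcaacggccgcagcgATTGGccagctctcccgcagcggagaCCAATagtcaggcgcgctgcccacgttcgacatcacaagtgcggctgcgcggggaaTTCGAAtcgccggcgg
Cdc20: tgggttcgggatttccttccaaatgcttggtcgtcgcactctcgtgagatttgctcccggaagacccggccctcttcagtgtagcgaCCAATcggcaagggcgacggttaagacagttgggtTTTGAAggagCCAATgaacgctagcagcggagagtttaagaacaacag
Cenpa: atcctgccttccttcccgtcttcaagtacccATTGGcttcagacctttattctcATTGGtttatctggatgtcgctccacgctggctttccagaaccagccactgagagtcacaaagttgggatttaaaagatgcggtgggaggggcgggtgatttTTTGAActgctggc
Bub1 carries the TTCGAA form of the element and the other 5 the TTTGAA form. Cdk1 holds 2 CHR elements and Hmmr 4 CCAAT boxes, and each of the others shown holds 1 CHR element and 2 CCAAT boxes.

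The counts by role stand beside 9.84% of all genes tested called lower and 22.1% with every mutant library below every control. Each role holds 3 to 10 genes, and differences between roles were not tested. Among the 7 genes of the kinase that starts mitosis and its activators, 2 were called lower and the summed level was 21.1% lower. Ccna2, the cyclin that partners Cdk2 and Cdk1 from S phase into mitosis, was measured at 17.4, 16.2 and 16.2 CPM in the controls and 9.45, 7.89 and 11.0 CPM in the mutants (log2 fold change -0.82, SE 0.14, adjusted p = 0.0081). Cdk1, the catalytic subunit, was at 9.70, 8.39 and 8.89 CPM against 6.48, 6.34 and 5.97 CPM (log2 fold change -0.52, SE 0.12, adjusted p = 0.023). In both genes the groups did not overlap. Part of the Ccna2 transcript sequence is shared with Exosc9. Their summed counts, which also hold Exosc9's own reads, were not called. The B-type cyclins Ccnb1 and Ccnb2 had lower mutant libraries throughout but did not pass the test (log2 fold change -0.32, adjusted p = 0.18, and -0.44, adjusted p = 0.074). Foxm1, a transcription factor of G2/M genes, was at 12.8, 10.7 and 11.5 CPM in the controls and 10.4, 11.9 and 10.2 CPM in the mutants (log2 fold change -0.11, adjusted p = 0.54), and the groups overlapped. The phosphatases that activate Cdk1, Cdc25b and Cdc25c, also overlapped, with log2 fold changes of -0.06 and 0.12. Ccna2 and Cdk1 fell, Foxm1 and the phosphatases did not pass the test, and the difference between these genes was not itself tested.

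Of 5 genes for other mitotic kinases and their activator, only Tpx2 passed (9.84% of all genes tested were called lower). Tpx2, which activates Aurora A on spindle microtubules, was at 13.3, 13.5 and 14.0 CPM in the controls and 10.5, 9.13 and 10.8 CPM in the mutants (log2 fold change -0.43, SE 0.11, adjusted p = 0.034). Ttk, the Mps1 kinase of the spindle checkpoint, was at 2.76, 2.42 and 2.48 CPM against 1.27, 1.68 and 1.83 CPM, which missed the threshold narrowly (log2 fold change -0.68, SE 0.21, adjusted p = 0.051) although the groups did not overlap. Polo-like kinase Plk1 was at 5.39, 4.36 and 5.10 CPM in the controls and 5.63, 5.48 and 4.30 CPM in the mutants (log2 fold change 0.05, SE 0.16, adjusted p = 0.83). Aurkb, the kinase of the chromosomal passenger complex, was at 6.18, 4.61 and 4.79 CPM against 4.33, 4.56 and 4.88 CPM (log2 fold change -0.18, SE 0.16, adjusted p = 0.44). For Plk1, Aurkb and also Aurka, at a log2 fold change of -0.08, the groups overlapped.

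Of 8 checkpoint and anaphase genes 2 were called lower (9.84% of all genes tested were) and 6 were not called. Bub1, a checkpoint kinase at the kinetochore, was at 4.60, 4.24 and 4.53 CPM in the controls and 2.20, 1.98 and 2.36 CPM in the mutants, 51.1% lower (log2 fold change -1.03, SE 0.16, adjusted p = 0.0054). Mad2l1, which encodes the checkpoint inhibitor of Cdc20, was at 10.7, 10.2 and 10 CPM against 6.92, 7.09 and 7.80 CPM (log2 fold change -0.51, SE 0.11, adjusted p = 0.021). These were the 2 called genes, and the summed level of the 8 was 4.21% lower. Cdc20, the activator of the anaphase-promoting complex that Mad2 inhibits, was at 7.22, 5.51 and 6.17 CPM in the controls and 6.33, 7.16 and 7.02 CPM in the mutants (log2 fold change 0.12, SE 0.15, adjusted p = 0.58). Pttg1, or securin, which holds separase inactive, was at 9.77, 9.04 and 9.73 CPM against 10.4, 12.5 and 10.7 CPM (log2 fold change 0.24, SE 0.12, adjusted p = 0.18). Bub3, a checkpoint scaffold protein, was at 35.6, 33.9 and 34.3 CPM against 36.2, 36.5 and 38.0 CPM (log2 fold change 0.09, adjusted p = 0.43). In Pttg1 and Bub3 every mutant library was above every control, by less than the test could call. Bub1b, Ube2c and Espl1 (separase) had log2 fold changes of -0.11, -0.41 and -0.13 and did not pass.

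Kinetochore genes were among the most reduced, with 5 of 9 called lower (9.84% of all genes tested) and a summed level 30.1% lower. Knl1, the scaffold that recruits Bub1 and Bub3, had the largest change of the 58 genes, from 5.57, 5.35 and 5.62 CPM in the controls to 2.28, 1.89 and 3 CPM in the mutants, 56.6% lower (log2 fold change -1.21, SE 0.19, adjusted p = 0.0066). Ndc80, which binds microtubule ends, was at 3.35, 3.12 and 3.19 CPM against 1.88, 2.11 and 2.30 CPM (log2 fold change -0.62, SE 0.17, adjusted p = 0.038). Its partner Nuf2 was at 5.96, 4.87 and 5.26 CPM against 2.74, 3.02 and 3.98 CPM (log2 fold change -0.73, SE 0.19, adjusted p = 0.031). The other subunits of the same complex, Spc24 and Spc25, had log2 fold changes of -0.23 (adjusted p = 0.47) and -0.53 (adjusted p = 0.10). Cenpe, a kinetochore motor, was at 11.1, 10.6 and 11.2 CPM in the controls and 6.65, 6.76 and 8.35 CPM in the mutants (log2 fold change -0.59, SE 0.13, adjusted p = 0.019). Cenpf, of the outer kinetochore, was at 17.3, 17.1 and 17.8 CPM against 10.9, 9.39 and 14.3 CPM (log2 fold change -0.59, SE 0.16, adjusted p = 0.035). The 5 called genes encode proteins of the outer kinetochore, and the members of the inner, chromatin-bound part did not pass. Cenpa, the histone variant that marks centromeres, was at 8.26, 6.02 and 6.74 CPM against 6.22, 8.80 and 6.12 CPM (log2 fold change 0.01, SE 0.19, adjusted p = 0.98). Cenpk was at 1.24, 1.08 and 0.907 CPM against 0.998, 1.63 and 1.22 CPM, with the largest increase among the 58 genes but overlapping groups (log2 fold change 0.25, SE 0.27, adjusted p = 0.52).

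None of the 3 chromosomal passenger genes was called with edgeR, DESeq2 or limma voom, and 1 had an unadjusted p under 0.05. Incenp, the scaffold of that complex, was at 15.0, 13.9 and 15.1 CPM in the controls and 15.4, 15.3 and 14.2 CPM in the mutants (log2 fold change 0.03, SE 0.10, adjusted p = 0.85). Birc5 (survivin) had a log2 fold change of 0.13, with overlapping groups. Cdca8 (borealin) had a log2 fold change of -0.42, with mutant libraries below all controls (adjusted p = 0.092).

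**Figure D4:**
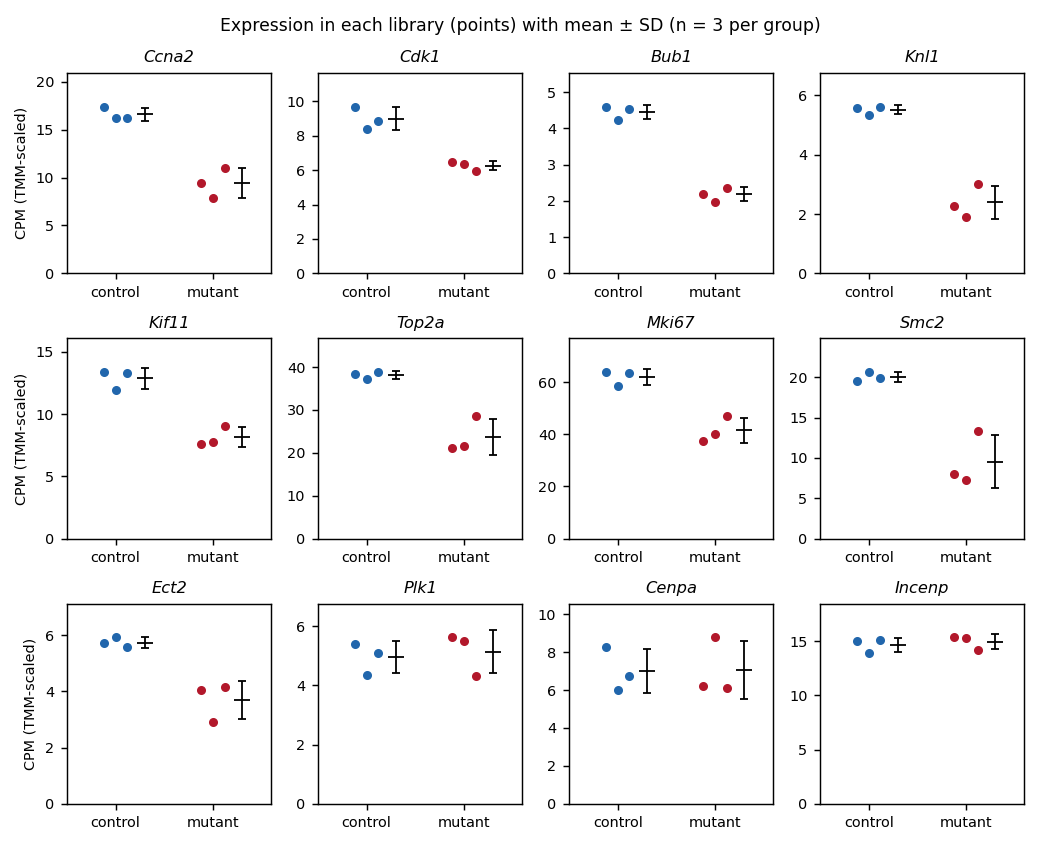
CPM (y axis, from 0) of 12 mitotic genes in each of 3 control (blue) and 3 mutant (red) libraries (x axis), with the mean ± SD in black. From Ccna2 to Ect2 the groups are apart, and for Plk1, Cenpa and Incenp the groups overlap.

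Of 10 mitotic kinesins 2 were called lower (9.84% of all genes tested were). In 6 every mutant library was below every control (22.1% of all genes tested). Kif11, the motor that pushes spindle poles apart, was at 13.4, 11.9 and 13.3 CPM in the controls and 7.56, 7.78 and 9.05 CPM in the mutants, 36.8% lower (log2 fold change -0.66, SE 0.12, adjusted p = 0.011). Kif4, a chromosome-bound motor, was at 5.40, 4.56 and 5.28 CPM against 3.65, 3.47 and 3.61 CPM (log2 fold change -0.51, SE 0.14, adjusted p = 0.043). That call was lost when its counts were summed with those of Pdzd11, which made up most of the sum. Kif14, which acts in cytokinesis, was at 2.93, 2.09 and 3.16 CPM against 1.74, 1.68 and 2.19 CPM, and mutant 3 lay above control 2 (log2 fold change -0.55, SE 0.22, adjusted p = 0.11). Kif18b, Kif20a, Kif20b and Kif23 had every mutant library below every control, at log2 fold changes of -0.44 to -0.34 and without a call. The remaining 3, Kif2c, Kif22 and Kifc1, had log2 fold changes of -0.21, 0.05 and -0.05 and overlapping groups. Summed over the 10, kinesin mRNA was 22.2% lower.

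Spindle assembly factors had the largest reduction in summed level, 35.4%, with 3 of 4 called lower (9.84% of all genes tested). Aspm, which focuses spindle poles, was at 8.71, 8.27 and 8.81 CPM in the controls and 4.75, 3.81 and 6.47 CPM in the mutants (log2 fold change -0.78, SE 0.19, adjusted p = 0.028). Nusap1, which bundles microtubules near chromosomes, was at 10.6, 8.92 and 9.34 CPM against 5.45, 6.03 and 6.63 CPM (log2 fold change -0.67, SE 0.14, adjusted p = 0.015). Hmmr, a spindle protein and hyaluronan receptor, was at 6.29, 4.79 and 5.47 CPM against 2.71, 3.10 and 4.08 CPM (log2 fold change -0.74, SE 0.20, adjusted p = 0.035). In each the highest mutant library, mutant 3, was still below the lowest control. Dlgap5, which stabilises spindle microtubules, had a log2 fold change of -0.20 and overlapping groups.

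In cytokinesis all 5 genes had every mutant library below every control (22.1% of all genes tested did). Of the 5, 2 were called lower (9.84% of all genes tested). Ect2, the exchange factor that activates RhoA at the division plane, was at 5.71, 5.94 and 5.57 CPM in the controls and 4.04, 2.91 and 4.15 CPM in the mutants, 35.5% lower (log2 fold change -0.63, SE 0.17, adjusted p = 0.037). Anln, the contractile ring scaffold anillin, was at 9.10, 9.37 and 9.43 CPM against 6.85, 5.06 and 7.07 CPM (log2 fold change -0.56, SE 0.15, adjusted p = 0.038). Both were lowest in mutant 2. Prc1, which bundles the midzone microtubules, was at 30.1, 25.8 and 28 CPM against 23.7, 21.5 and 21.3 CPM (log2 fold change -0.34, SE 0.10, adjusted p = 0.051). For Racgap1, the partner of Ect2 at the midzone, the log2 fold change was -0.35 (adjusted p = 0.054), and Cit (citron kinase) was at -0.28 (adjusted p = 0.18). The summed level of the 5 was 23.8% lower.

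Chromosome structure genes made up the largest share of the summed CPM, and 5 of 7 were called lower (9.84% of all genes tested). Smc2, the condensin subunit common to both condensin complexes, was at 19.5, 20.7 and 19.9 CPM in the controls and 8.02, 7.24 and 13.3 CPM in the mutants, 52.4% lower (log2 fold change -1.07, SE 0.22, adjusted p = 0.015). Its partner Smc4 was at 56.1, 57.9 and 59.6 CPM against 42.8, 48.7 and 47.9 CPM, a smaller change (log2 fold change -0.32, SE 0.09, adjusted p = 0.042). Ncapg, of condensin I, was at 4.24, 4.05 and 4.34 CPM against 2.30, 2.6 and 2.56 CPM (log2 fold change -0.76, SE 0.15, adjusted p = 0.015). The other condensin I subunits Ncapd2 and Ncaph had log2 fold changes of -0.15 and -0.14 with overlapping groups. Top2a, the topoisomerase that untangles sister chromatids, was at 38.5, 37.2 and 38.9 CPM in the controls and 21.2, 21.5 and 28.6 CPM in the mutants (log2 fold change -0.68, SE 0.13, adjusted p = 0.012). Mki67, which encodes the proliferation marker Ki67 that coats mitotic chromosomes, was at 64.0, 58.6 and 63.4 CPM against 37.6, 40.3 and 46.9 CPM, 32.9% lower (log2 fold change -0.57, SE 0.11, adjusted p = 0.011). Among the condensin subunits the log2 fold changes thus ran from -1.07 to -0.14, and mutant 3 was the least reduced mutant in Smc2, Top2a and Mki67.

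Per kilobase of exon, the most abundant members in the controls were Smc4 at 11.1 CPM per kb and Mki67 at 6.16 CPM per kb, followed by Bub3 at 4.94, Pttg1 at 4.76 and Cdc25b at 4.41 CPM per kb. Cenpk was the least abundant at 0.206 CPM per kb, after Kif14 at 0.263 and Cdc25c at 0.266 CPM per kb. The counts behind the values ran from 56 to 4120 per gene and library. Genes called lower had a median control level of 9.46 CPM and the others 5.60 CPM, on the scale not divided by length.

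The changes of the mitotic genes ran together with base composition, as those of all genes did. The longest transcripts of the 58 genes had a median GC content of 46.5%, against 49.6% for all genes tested, and a median exon length of 5220 bases against 3610 bases. In the quintile of all tested genes with the lowest GC content (28.3% to 43.8%) the median log2 fold change was -0.27 and 21.9% were called lower, and in the quintile with the highest (55.3% to 78.4%) it was 0.21 and 2.90% were called lower. Of the mitotic genes, 20 fell in the lowest quintile, with 15 called and a median of -0.65. In the next quintiles the numbers were 4 of 12 (median -0.36), 3 of 12 (median -0.28), 0 of 9 (median -0.15) and 0 of 5 (median -0.05). The median of the mitotic genes was below that of all genes in each quintile. With an offset that removes the trend with GC content from each library, 9 of the 22 genes were still called, Ccna2, Cdk1, Tpx2, Bub1, Knl1, Kif11, Top2a, Mki67 and Smc2, the median was -0.34 and 52 genes were fitted lower. With an offset for GC content and length together, 5 were called and the median was -0.25. Among the 22 called genes, the log2 fold change moved by over 1.5 times under the GC offset in Smc4 (to -0.03), Mad2l1 (-0.22), Ncapg (-0.22), Ect2 (-0.34) and Knl1 (-0.80, adjusted p = 0.040). Among the genes not called, some moved towards 0, such as Kif20b (from -0.44 to -0.12) and Prc1 (from -0.34 to -0.18), and others away from it, such as Foxm1 (from -0.11 to -0.29), Espl1 (from -0.13 to -0.33), Cit (from -0.28 to -0.45) and Cenpk (from 0.25 to 0.66).

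**Figure D5:**
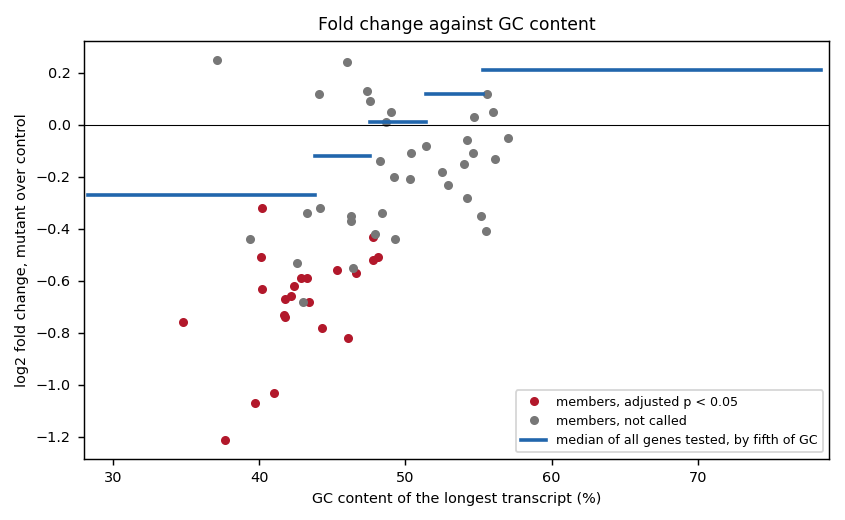
Log2 fold change, mutant over control (y axis), against the GC content of the longest transcript in percent (x axis) for the 58 mitotic genes (red, called lower; grey, not called). Blue lines give the median of all genes tested in each quintile of GC content, from -0.27 to 0.21, and 51 of the 58 mitotic genes lie below the median of their quintile.

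Some of these genes overlap or resemble other genes, so reads may have been divided between them. For 10 of the 58, at least 5% of the 75-base stretches of their transcripts also occur in another gene. Summed with Exosc9, Ccna2 was at 33.9, 31.5 and 31.4 CPM in the controls and 28.1, 26.8 and 29.8 CPM in the mutants (log2 fold change -0.19, adjusted p = 0.16), and was no longer called. Kif4 summed with Pdzd11 turned in direction (log2 fold change 0.17, adjusted p = 0.17). Ncapg summed with Lcorl was still lower (log2 fold change -0.75, adjusted p = 0.0049), and Ube2c summed with Tnnc2, a muscle gene, became called (log2 fold change -0.64, adjusted p = 0.034). Prc1 summed with Rccd1 had a log2 fold change of -0.03. These sums also hold the partner's own reads. In the controls Ccna2 averaged 16.6 of 32.2 CPM and Ncapg 4.21 of 34.1 CPM. Kif4 stood at 4.56 to 5.4 of 27.3 to 28.6 CPM. For Ccna2, Ncapg and Kif4 only 10.8%, 11% and 13.8% of the stretches are shared. Ube2c and Prc1 made up most of their sums. A sum thus cannot tell divided reads from the partner's own level. How far the members' own values are uncertain was not tested.

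Other genes of the same pathways were counted over whole lists of names, without a test of their difference from the 58 genes. Of 120 further mitotic genes 12 were called lower and 6 higher, with a median log2 fold change of -0.15. Among 32 further kinetochore and centromere genes 4 were lower and 1 higher, led by Sgo2a (shugoshin, which protects centromeric cohesin) at -0.83 (adjusted p = 0.012) and Hjurp (the Cenpa chaperone) at 0.56 (adjusted p = 0.027). Of 17 genes of the anaphase-promoting complex 2 were lower and 2 higher, with Anapc1 at -0.57 (adjusted p = 0.035) and Anapc16 at 0.41 (adjusted p = 0.019). Of 16 cohesin and condensin II genes 2 were lower and 11 had every mutant library below every control (22.1% of all genes tested). The median of the 16 was -0.34, and Pds5b, a cohesin regulator, was at -0.72 (adjusted p = 0.027). Of 26 spindle pole and microtubule genes 2 were lower and 1 higher, with Ckap2l at -0.55 (adjusted p = 0.028) and Tubgcp2 at 0.40 (adjusted p = 0.026). Among 13 genes of MuvB and other G2/M gene regulators, Tfdp1 was lower (-0.37, adjusted p = 0.038) and 2 were higher, led by the MuvB subunit Lin37 (0.77, adjusted p = 0.010). Of 16 regulators of mitotic entry and exit Pbk alone was called, at -0.64 (adjusted p = 0.048). Of 30 S phase genes, which copy DNA before mitosis, 3 were lower and 1 higher, with a median of -0.19, Pola1 at -0.87 (adjusted p = 0.022) and Rfc3 at 0.56 (adjusted p = 0.029). In all, 10% of the 120 genes were called lower, close to the 9.84% of all genes tested.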

How the data were processed

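The members and gene lists were chosen with earlier results of these data known. Groups were taken from the genotype in the labels. The label of control 1 carries another letter code than those of controls 2 and 3, which the sources do not explain. The authors deposited estimated counts for each gene and, in a separate table, normalized signal that equals a gene's estimated count plus 1 times a factor per library. The methods name TopHat 2 with mm10 and counting of reads over exons, whereas the submitters' processing notes name STAR 2.6.1d and Partek with mm10. The counter, annotation and use of strand are not given in the sources used here. Of the estimated counts 47.8% were whole, and all were rounded before testing. The count table also held 6 columns of other samples, which were not used.

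R 4.3.3, edgeR 4.0.16, limma 3.58.1 and DESeq2 1.42.0 were used. Counts were filtered with filterByExpr, scaled with TMM and tested over all genes with edgeR's quasi-likelihood test (Benjamini-Hochberg adjustment, threshold 0.05, no block). The fit was tested on simulated counts. The sum of estimated counts per library was 56134770 to 62628940. Each SE is the absolute log2 fold change divided by the square root of edgeR's quasi-likelihood F statistic. It thus rests on a variance between libraries that edgeR moderates over all genes. SD values are the plain spread between libraries. The differences between libraries exceeded counting noise in chi-square comparisons within each group. Gene coordinates, exon lengths and GC content came from GENCODE M21, in which 27477 of 27506 genes, and all 58 members, had the same coordinates as in the table. Genes named with full values were all called members, a fixed member of each role, Ccna2, Ect2 and Mki67, the 2 largest increases, the 2 largest decreases not called, and the gene with the smallest p in each direction of each other list. Motifs were searched on both strands of RefSeq windows, and a gene sharing at least 20 stretches of 75 bases was treated as sharing sequence. Alternatives were other tests, scalings, filters, offsets, a replicate block by the S number in the labels, the normalized signal and leaving out each library.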

Additional observations from a re-analysis of the deposited data

How the results depend on the processing

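The number of mitotic genes called lower was 22 and stayed between 19 and 26 under the other tests, scalings, filters, the normalized table and sums with genes sharing sequence. It was 9 with the GC offset, 5 with the offset for GC content and length, 9 with the replicate block and 1 with the replicate block and the GC offset, and 3 to 25 without single libraries. Of all genes tested, 9.84% were called lower in the main fit. The share was 14% with DESeq2, 16.4% with limma voom and 13.2% with edgeR's likelihood ratio test. The mitotic genes called lower in these fits numbered 22, 26, 25 and 24. For the offsets, the block and the fits without single libraries that share is not given here. The study's methods speak of 3 pairs of samples without saying which libraries were paired, and the main fit used no pairing. The replicate block assumed pairs from the S number in the library labels, which the sources used here do not describe as a pairing. Libraries with the same S number deviated from their group means with correlations of -0.10, -0.08 and 0 over genes. With 3 libraries per group these correlations cannot exclude a pairing. The number called higher was 0 throughout. The median log2 fold change of -0.36 became -0.25 with the offset for GC content and length and ran from -0.44 to -0.32 without single libraries. Under other scalings 33 to 35 genes had groups apart and lower. Ror2 kept its log2 fold change of -0.43 with the replicate block, where its adjusted p was 0.058, and it ran from -0.46 to -0.41 without single libraries, with an adjusted p of 0.066 without control 2 and 0.075 without control 3.

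Of 1218 member values under alternatives, 31 turned in direction, all but Kif4 in genes that were not called. With the GC offset Plk1 became -0.15, Cdc20 -0.08, Cenpa -0.02 and Incenp -0.15. With GC content and length they were -0.19 for Plk1, -0.14 for Cdc20 and -0.10 for Incenp, and with the replicate block and the GC offset -0.16 for Plk1, -0.08 for Cdc20, -0.02 for Cenpa and -0.15 for Incenp. Cenpa was also at -0.02 with limma voom, at -0.01 with library size alone and without the filter, and at 0 with the replicate block, and Birc5 was at -0.02 with limma voom. Kif4 summed with Pdzd11, which made up most of the sum, was at 0.17. Without single libraries the ranges that crossed 0 were -0.12 to 0.01 for Cdc25b, -0.01 to 0.25 for Cdc25c, -0.04 to 0.16 for Plk1, -0.27 to 0.07 for Espl1, -0.18 to 0.13 for Cenpa, -0.01 to 0.06 for Incenp, -0.06 to 0.26 for Birc5, -0.11 to 0.16 for Kif22 and -0.21 to 0.10 for Kifc1. The causes were not tested. Depth limits the precision of the members with the fewest counts, which had as few as 56 in a library.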
